A study of Mus musculus with 16 samples.

Results

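Collagen genes were followed in RNA sequencing libraries of mouse hippocampus. They were taken from the deposited count table as the rows whose gene symbol is Col, a number, the letter a and a number, kept where at least 4 of the 16 libraries held 10 or more counts. Of 44 such rows among the 49315 of the table, 42 were kept. Col10a1 held at most 3 counts in any library and Col17a1, a hemidesmosome collagen, reached 10 counts in 1 library, so both fell outside the rule. Nearest to the limit on the inside was Col28a1, with 10 or more counts in 9 libraries and 5 to 23 counts over all of them. All 42 kept genes also passed the filter on low counts of the test.

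The animals were mice lacking Kcna1 (KO) or wild type mice (WT), fed a standard or a ketogenic diet, with 4 animals in each of the 4 groups: WT on the standard diet, KO on the standard diet, WT on the ketogenic diet and KO on the ketogenic diet. Kcna1 codes for a subunit of an axonal potassium channel, its loss in mice serves as a model of epilepsy, and a ketogenic diet is rich in fat and poor in carbohydrate. The labels used here give no strain, age, sex, diet length or knockout allele, and libraries are named below by the animal tag of their column. The tags run from KC842L to KC846L in WT and from KC913RR to KC935LL in KO on the ketogenic diet. In both groups on the standard diet they run from KC872RL to KC900RLL and interleave. What this order stands for is not given. Differences with diet, and with genotype on the ketogenic diet, cannot be told apart from differences that follow it.

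Collagens are secreted or membrane proteins with a triple helix of 3 chains, and each chain is encoded by a gene of its own. Fibrillar collagens form cables in connective tissue, type IV collagen forms the sheet of the basement membrane around brain vessels, type VI forms beaded filaments, and the collagens with interrupted helices (FACITs) attach to fibrils or act at cell surfaces. In the brain, most collagen protein lies in the vessel wall and the meninges, while a few members, such as Col19a1 and Col25a1, are made by neurons.

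Depth and library features that touch the results were as follows. Each library held 13440230 to 22309504 counts, and the collagen genes summed to 661 to 1019.9 CPM, the count of a gene scaled by library size. The targeted gene Kcna1 lay at 107 to 130 CPM in the 8 WT libraries and at 43.4 to 47.2 CPM in 7 KO libraries, while the library labelled KO KC888LL, on the standard diet, stood apart at 82.0 CPM. The count of called collagen genes in each comparison with that group is therefore also given without it. Xist was at 730 to 844 CPM in 12 libraries and at 4.43 to 41.1 CPM in 4 (KC890RL in WT on the standard diet, KC872RL and KC873RR in KO on the standard diet, KC846L in WT on the ketogenic diet), and these 4 held the Y-linked Ddx3y at 56.5 to 65.1 CPM. Markers of dentate granule cells (215 to 447 CPM summed) and of CA3 and CA1 pyramidal cells (289.6 to 503 CPM) were found in every library, as the tissue label states. Reactive astrocyte markers were high in 5 libraries, at 763 to 2863 CPM against 365 to 482 CPM in the other 11. Microglia markers were high in KC872RL and KC873RR, at 369 and 352 CPM against 163 to 208 CPM in the other 14. Choroid plexus markers were high in KC894RLL and KC844RR, at 1111 and 1069 CPM against 36.5 to 586 CPM elsewhere. In bulk tissue a smaller number of cells of a type and less RNA per cell cannot be told apart.

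Per length of transcript, the hippocampus held a few collagens at high level and most at low level. On the scale of CPM per kilobase of the transcript with the longest coding sequence, Col25a1, a membrane collagen of neurons that binds amyloid, had the highest mean at 44.8, followed by Col4a2 at 17.1, Col6a1 at 16.7, Col4a1 at 13.3, Col11a1 at 12.3 and Col19a1 at 9.21. The first place of Col25a1 rests on that transcript of 2.62 kb. Counted over all annotated exons, 12.9 kb, it ranked 4 of 42, and Col4a2 ranked first. Neighbours in the order overlapped widely: Col6a1 ran from 3.45 to 33.0 CPM per kilobase over the 16 libraries, which spans Col4a2 (14.1 to 22.8) and Col4a1 (10.8 to 20.5). The place of Col6a1 differed by group. In WT its mean was 11.0 on the standard and 11.1 on the ketogenic diet, below Col4a1 at 12.7 and 12.2. In KO it was 26.5 on the standard diet, above Col4a2 at 17.4, and 18.1 on the ketogenic diet, below Col4a2 at 18.9. At the low end lay Col24a1 at 0.122, Col28a1 at 0.145, Col4a3 at 0.151 and Col4a4 at 0.158 CPM per kilobase.

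**Figure D1:**
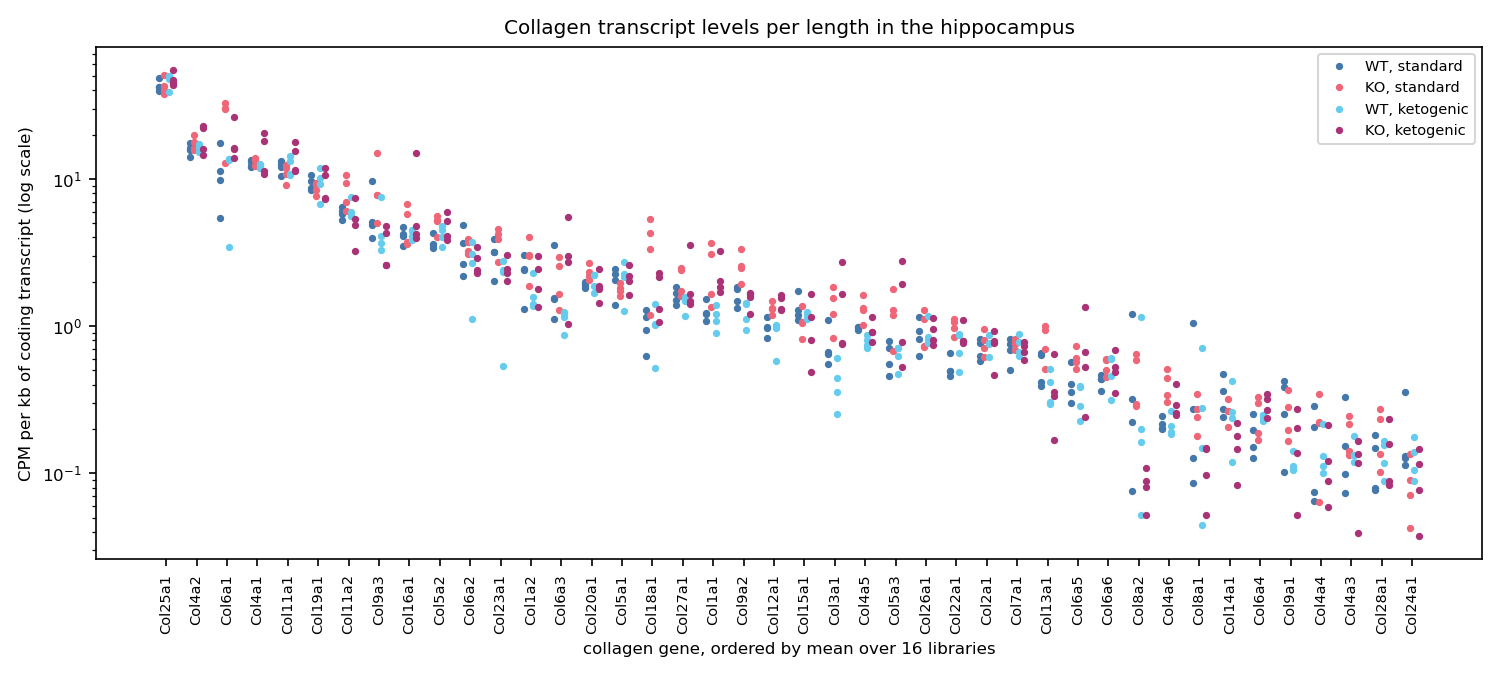
Level of each of the 42 collagen genes in CPM per kilobase of coding transcript (log axis), ordered by the mean over 16 libraries, with 1 point per library coloured by group. Col25a1 leads at a mean of 44.8 and Col24a1 is last at 0.122, and Col6a1 has a wide spread over libraries (3.45 to 33.0).

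The summed level of the 42 genes was 764 ± 55.0 CPM in WT on the standard diet, 922 ± 90.3 in KO on the standard diet, 749 ± 59.9 in WT on the ketogenic diet and 898 ± 136 in KO on the ketogenic diet (SD, n = 4 each). The highest sums were those of KC913RR (1019.9), KC934R (1008) and KC872RL (1008), all KO libraries, and the lowest was that of the WT library KC846L (661). Within KO on the ketogenic diet the lowest library, at 753 CPM, lay inside both WT ranges, so the groups overlap. The 5 highest sums, 902 CPM and more, were those of the 5 libraries with high reactive astrocyte sums, and the other 3 KO libraries, at 753 to 811 CPM, lay within the 661 to 823 CPM of the 8 WT libraries. The part of those markers in the summed level was not tested.

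**Figure D2:**
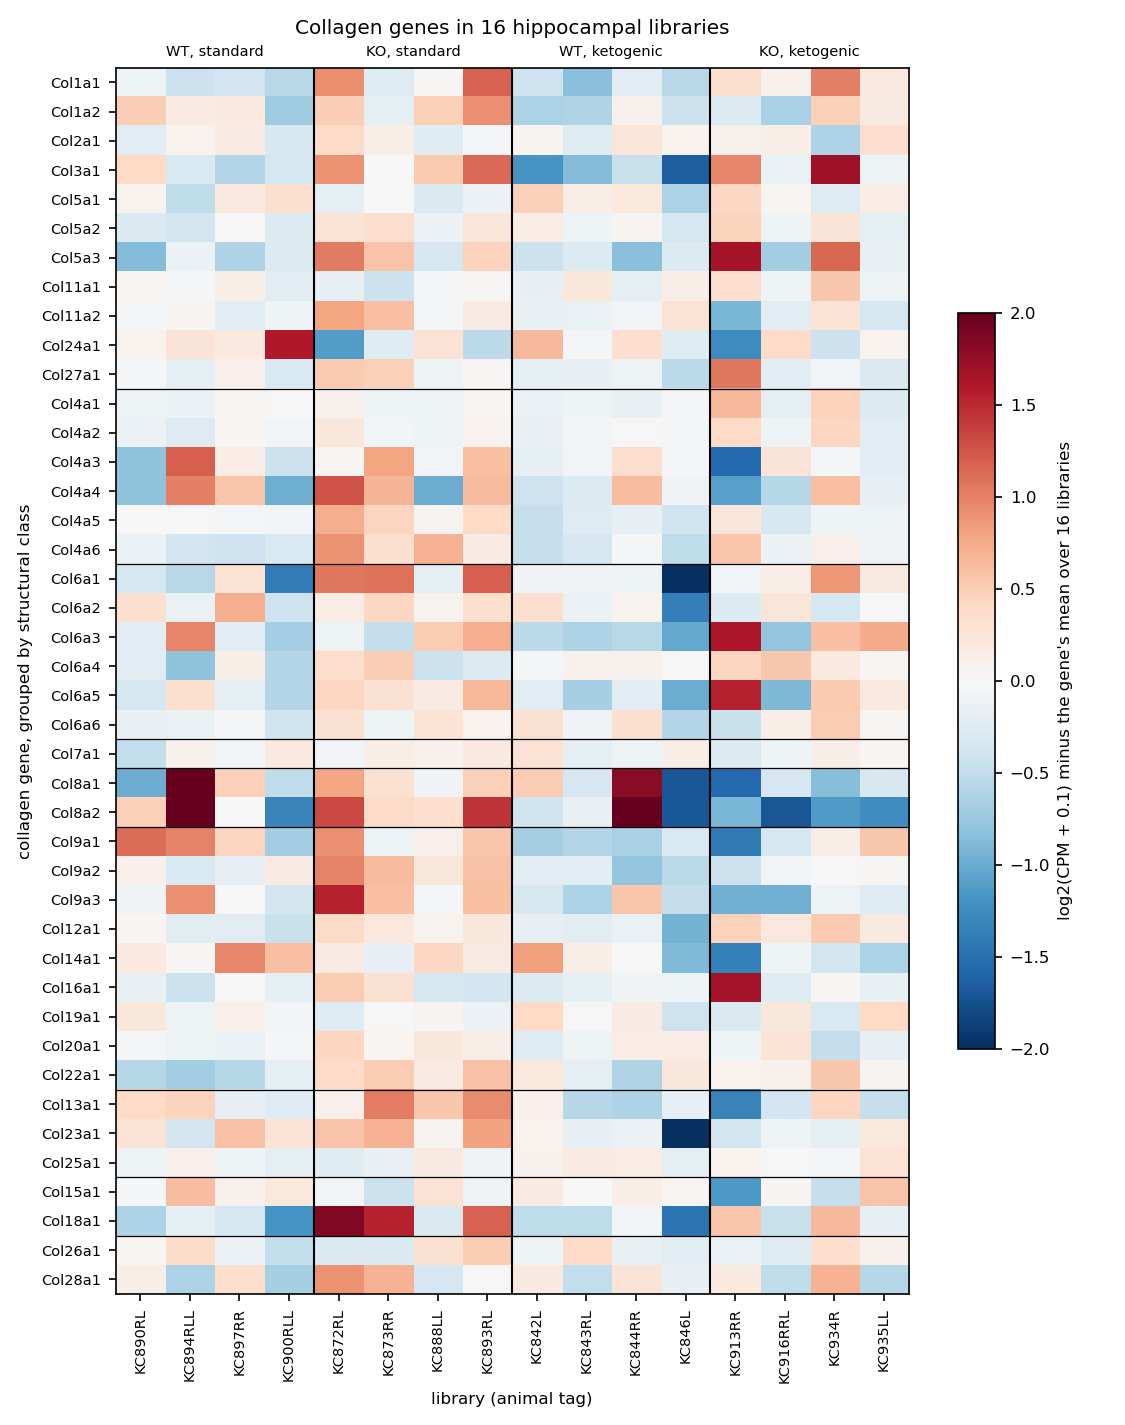
Each of the 42 collagen genes (rows, by structural class) in each of the 16 libraries (columns, by group), as log2 of CPM plus 0.1 minus the mean of that gene over the libraries. The library KC846L is the lowest of 16 for 14 genes (11.1% of all tested genes) and KC872RL the highest for 10 (12.4% of all tested genes). Col8a1 and Col8a2 are highest in KC894RLL and KC844RR.

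With Kcna1 lost on the standard diet, more collagen genes lay above than below the WT level, but with all libraries none passed the test (edgeR quasi-likelihood, adjusted p under 0.05 over 17469 genes). The median log2 fold change of the 42 was 0.33, against 0.00 over all genes tested, and 32 of 42 were above 0. The whole table gave 1 call in this comparison (0.00572%). At an unadjusted p under 0.05, 12 of 42 collagen genes (28.6%) were higher and 1, Col24a1, was lower, against 7.64% and 6.69% of all genes. DESeq2 called 4 collagen genes (Col18a1, Col1a1, Col22a1 and Col9a2) where it called 0.967% of all genes. By limma-voom 0 collagen genes and 0.0114% of all genes were called. In 6 genes, Col20a1, Col4a6, Col4a5, Col9a2, Col12a1 and Col22a1, all KO libraries exceeded all WT libraries, which held for 2.97% of all genes, and in none was the order the reverse (2.89% of all genes). In the same comparison 5 of 5 reactive astrocyte markers (median 1.63) and 6 of 6 microglia markers (median 0.47) lay above 0, with none called, and KC888LL was the 1 KO library on this diet with an astrocyte sum in the WT range (429 CPM). What part these markers have in the collagen values was not tested.

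Without KC888LL, 6 collagen genes were called higher in KO on the standard diet and none lower, where 2.88% of 17725 genes were called higher and 2.85% lower. These were Col18a1 (log2 fold change 2.10, adjusted p = 0.00373), Col1a1 (1.09, 0.0464), Col22a1 (0.99, 0.00652), Col9a2 (0.79, 0.0165), Col4a5 (0.54, 0.0311) and Col5a2 (0.52, 0.0390). They belong to 4 structural classes. With Xist as a covariate as well, Col18a1 and Col22a1 were called, where 1.62% of all genes were.

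**Figure D3:**
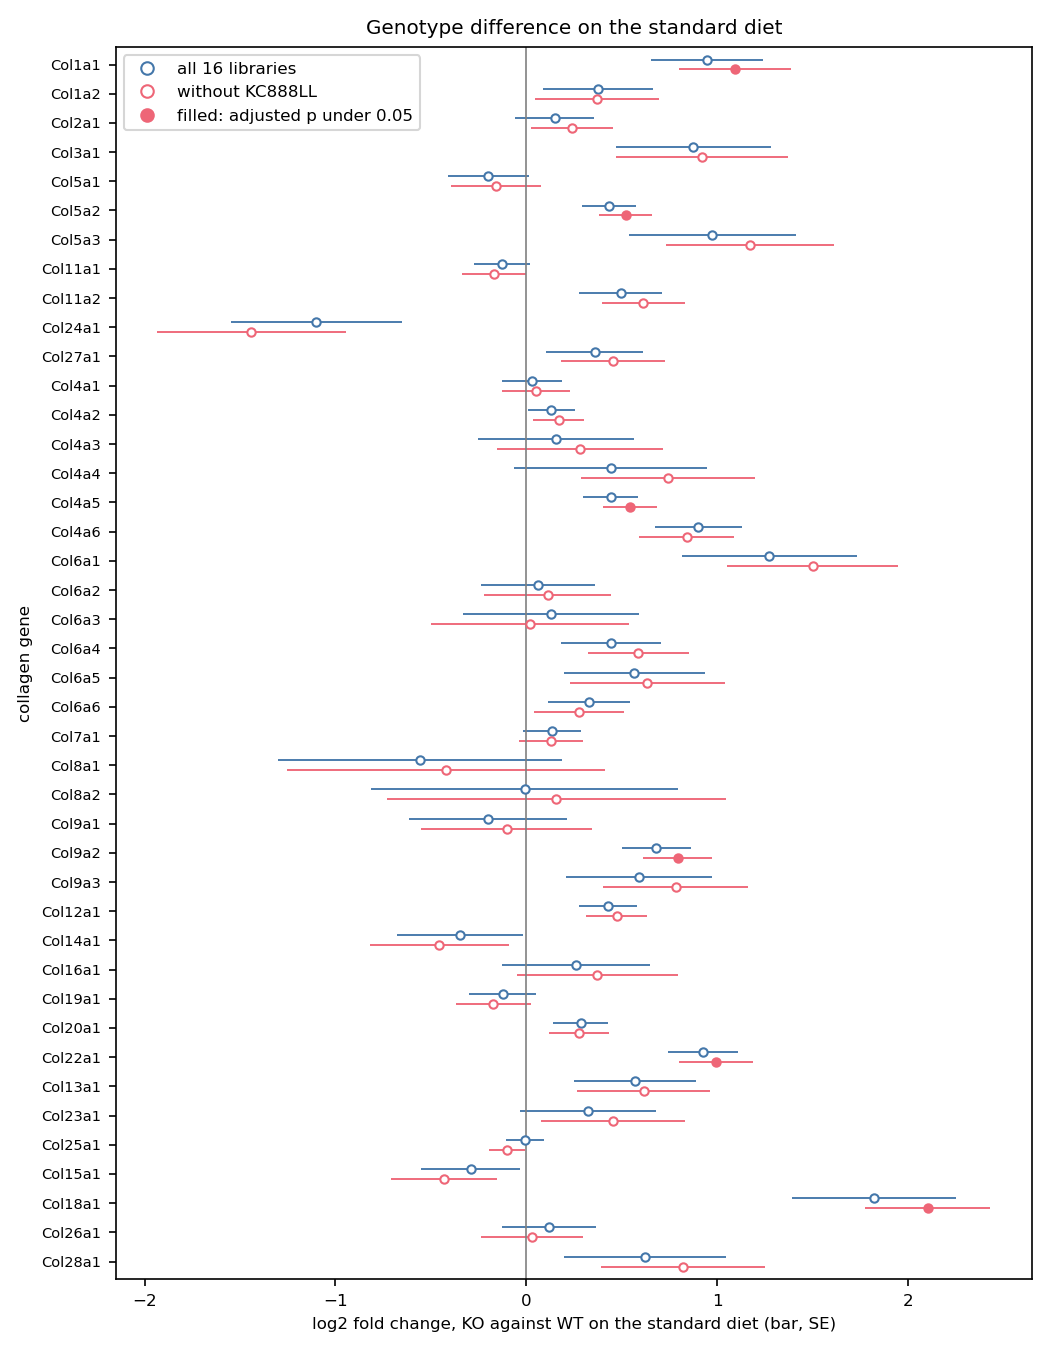
Log2 fold change of KO against WT on the standard diet for the 42 collagen genes, with its SE, fitted with all 16 libraries and without KC888LL. Filled points mark an adjusted p under 0.05: there are 0 with all libraries and 6 without KC888LL, and Col18a1 has the largest value in both fits.

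On the ketogenic diet the same genotype comparison had a median of 0.19 over the 42 genes, against 0.00 over all genes, with 28 above 0. No collagen gene passed the adjusted threshold in edgeR, where 0.0172% of all genes did. At an unadjusted p under 0.05 there were 7 higher (16.7%) and 1 lower, Col8a2, against 5.24% and 3.97% of all genes. DESeq2 called 2, Col12a1 and Col3a1, where it called 0.258% of all genes. By limma-voom 0 collagen genes and 0.0286% of all genes were called. Col3a1, Col6a1, Col12a1 and Col1a1 were higher in every KO than in every WT library, an order that 2.00% of all genes had, and none was lower in that way (1.98%). In this comparison 5 of 5 reactive astrocyte markers (median 1.38) and 1 of 8 choroid plexus markers (median -1.73) lay above 0. Of blood (median -1.64) and oligodendrocyte markers (median -0.47), 0 of 5 and 0 of 6 did. Of microglia markers 0 of 6 did (median -0.12). None was called in any of these lists, and their part in the collagen values was not tested.

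Averaged over both diets, 1 collagen gene, Col12a1, rose in KO by edgeR, where 0.0973% of all genes were called. DESeq2 called 9 collagen genes in this average and 2.38% of all genes. Of the 42 genes 34 lay above 0, with a median of 0.19, against 0.01 over all genes. Without KC888LL the count was 10, all higher in KO, against 2.28% of all genes called higher and 2.68% lower: Col1a1, Col3a1, Col5a2, Col5a3, Col4a5, Col4a6, Col9a2, Col12a1, Col22a1 and Col18a1. This average holds the same libraries as the comparisons within each diet. In it 5 of 5 reactive astrocyte markers (median 1.55) and 6 of 6 microglia markers (median 0.15) lay above 0. Of choroid plexus markers 1 of 8 did (median -0.98), of blood markers 0 of 5 (median -0.57) and of oligodendrocyte markers 0 of 6 (median -0.24). The microglia markers had opposite signs by diet: 6 of 6 lay above 0 on the standard diet (median 0.47) and 0 of 6 on the ketogenic diet (median -0.12). None of these was called, and their part in the collagen values was not tested.

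The ketogenic diet in KO was followed by lower Col9a2, the 1 collagen gene called by edgeR, where 1.16% of all genes were. DESeq2 called Col11a2, Col9a2 and Col9a3, and 3.88% of all genes. The median over the 42 genes was -0.13, against 0.01 over all genes, and 28 were below 0. At an unadjusted p under 0.05, 9 were lower (21.4%) and 1, Col11a1, was higher, against 9.10% and 7.83% of all genes. In Col9a3, Col9a2, Col8a2 and Col8a1 all 4 libraries on the ketogenic diet lay below all 4 on the standard diet, an order 3.72% of all genes had, and in none above (2.68%). Without KC888LL 4 were called lower, against 3.60% of all genes, and none higher, against 2.58%. The 4 were Col9a3 (-1.499, adjusted p = 0.0430), Col18a1 (-1.33, 0.0272), Col9a2 (-0.87, 0.0101) and Col4a5 (-0.58, 0.0216). The KO libraries on the standard diet serve both this comparison and the genotype comparison on that diet, so the opposite signs are not independent.

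In WT the diet changed no collagen gene past the adjusted threshold by edgeR, DESeq2 or limma-voom (0.0114% of all genes by edgeR, 0.0687% by DESeq2 and 0% by limma-voom). At an unadjusted p under 0.05, Col22a1 was higher and Col9a1 and Col9a2 were lower, against 2.44% and 3.01% of all genes. The groups were separate in 1 gene, Col4a5, which was lower on the ketogenic diet (2.42% of all genes), and in no gene the other way (2.46%). Averaged over genotypes, Col9a2 was the 1 collagen gene called by edgeR, and it fell, where 0.899% of all genes were called. DESeq2 called Col4a5 and Col9a2, and 2.47% of all genes. Without KC888LL, edgeR called Col9a2 and Col4a5 lower, against 1.68% of all genes called lower, and no collagen gene higher (0.897%).

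The difference of the diet effect between genotypes was called for no collagen gene by edgeR, DESeq2 or limma-voom. Of all genes, edgeR called 0%, DESeq2 0.0401% and limma-voom 0%. At an unadjusted p under 0.05 there were 2 of 42, Col22a1 at -0.67 ± 0.26 (SE) and Col11a2 at -0.73 ± 0.31, and 1306 of 17469 genes overall. Their adjusted p was 0.654 for both. The third smallest p was that of Col6a3, at 1.33 ± 0.66 with an adjusted p of 0.694. Over 27 alternatives Col6a3 ran from 0.86 to 1.61, Col11a2 from -0.95 to -0.27 and Col22a1 from -0.81 to -0.49, with none called. Without KC888LL the values were, in that order, 1.43, -0.85 and -0.74, and edgeR called 0 collagen genes and 0% of all genes.

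Type IV collagen is the network of the basement membrane, built in all vessels from the chains of Col4a1 and Col4a2. Col4a1 measured 79.6 to 88.5 CPM in WT on the standard diet, 80.4 to 91.9 in KO on the standard diet and 78.4 to 83.9 in WT on the ketogenic diet. In KO on the ketogenic diet it measured 136 in KC913RR, 119 in KC934R, 75.2 in KC916RRL and 71.8 in KC935LL. The 2 high libraries exceeded all others and the 2 low ones lay below all others. Col4a2 was high in the same 2 libraries of that group, at 144 and 147 CPM, with 102 and 94.1 CPM in the other pair, against 91.2 to 128 CPM in the other 12 libraries. The log2 fold change of KO against WT on the ketogenic diet was 0.32 ± 0.16 (SE) for Col4a1 and 0.22 ± 0.12 for Col4a2, with adjusted p of 0.565 and 0.609. Endothelial marker sums were 209.8 to 221 CPM in that group, with 220.4 and 221 in the 2 high libraries, and mural cell sums 139.8 to 197 CPM, with 159 and 197. Reactive astrocyte sums were 2397 and 1267 CPM in KC913RR and KC934R, and 368 and 376 CPM in KC916RRL and KC935LL. Their part in the result was not tested.

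Col4a1 and Col4a2 lie head to head, and the ratio of their levels was narrow over all libraries. On the scale of CPM per kilobase, the ratio of Col4a1 to Col4a2 averaged 0.80 ± 0.04 in WT and 0.75 ± 0.03 in KO on the standard diet, and 0.75 ± 0.04 in WT and 0.79 ± 0.09 in KO on the ketogenic diet (SD, n = 4 each). Over the 16 libraries it ran from 0.69 to 0.92. Col4a1 (ENSMUSG00000031502) occupies chr8:11198423-11312826 on the minus strand and Col4a2 (ENSMUSG00000031503) chr8:11312805-11449287 on the plus strand of GRCm38, so the annotated first exons share 22 bases. The 300-base windows around both start sites, 250 bases before and 50 after, are printed because this pair shares its start region. They are RefSeq sequences of build GRCm38.p6, chr8:11312777-11313076 (minus strand) and chr8:11312555-11312854 (plus strand), 5′ to 3′, and capitals mark the letters CCAAT and GGGCGG on either strand.
Col4a1: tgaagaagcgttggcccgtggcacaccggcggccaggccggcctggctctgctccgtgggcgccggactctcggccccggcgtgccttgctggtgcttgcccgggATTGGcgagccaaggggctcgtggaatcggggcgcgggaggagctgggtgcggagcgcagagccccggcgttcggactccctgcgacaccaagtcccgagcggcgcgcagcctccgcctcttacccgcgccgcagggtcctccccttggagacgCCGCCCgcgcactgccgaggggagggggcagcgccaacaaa
Col4a2: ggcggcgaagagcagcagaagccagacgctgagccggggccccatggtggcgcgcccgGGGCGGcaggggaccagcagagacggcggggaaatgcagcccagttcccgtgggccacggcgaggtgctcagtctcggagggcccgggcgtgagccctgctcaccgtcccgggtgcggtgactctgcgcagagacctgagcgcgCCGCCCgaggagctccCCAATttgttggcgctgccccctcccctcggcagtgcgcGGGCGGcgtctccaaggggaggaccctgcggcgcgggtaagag
The windows share 78 positions, read on opposite strands. Col4a1 held CCAAT at 1 place and GGGCGG at 1, Col4a2 at 1 and 3, and neither held TATAAA. The GGGCGG of Col4a1 lies in the shared positions and is also 1 of the 3 of Col4a2, so it is counted in both windows. Of 32851 promoter windows of this length in the table, 37.41% held CCAAT, 35.66% GGGCGG and 13.62% TATAAA on either strand. Of the 36 windows that matched 33 of the 42 collagen genes, 12 held CCAAT, 23 GGGCGG and 3 TATAAA. These are matches of letters and not binding sites.

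The other type IV chains form networks of restricted tissues. Col4a5 and Col4a6, X-linked neighbours, were at low level and separate between genotypes on the standard diet, an order that 2.97% of all genes had. Col4a5 measured 6.14 to 6.41 CPM in WT against 10.6, 8.62, 6.60 and 8.44 CPM in KO libraries KC872RL, KC873RR, KC888LL and KC893RL, with a log2 fold change of 0.44 ± 0.15 and an adjusted p of 0.210. The ketogenic groups gave 4.62 to 5.66 CPM in WT and 5.09 to 7.56 CPM in KO. The diet difference of Col4a5 in KO was -0.48 ± 0.15 (adjusted p = 0.108). Col4a6 was at 1.32 to 1.63 CPM in WT and 2.03 to 3.42 CPM in KO on the standard diet (0.90 ± 0.23, adjusted p = 0.192). The 2 KO libraries highest for Col4a5, KC872RL and KC873RR, are among the 4 with Y-linked expression and are those with the high microglia sums. The part of either in the result was not tested. Col4a3 and Col4a4 stayed between 0.334 and 3.47 CPM, had their highest values in KC894RLL and KC872RL, and were not called by edgeR in any of the 7 comparisons with all libraries.

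Fibrillar collagens were uneven between genotypes. Col1a1, the main chain of type I collagen of connective tissue, measured 9.05, 7.14, 7.30 and 6.47 CPM in WT and 18.4, 8.04, 9.74 and 21.8 CPM in KO on the standard diet. With the ketogenic diet it measured 7.16, 5.34, 8.31 and 6.47 CPM in WT and 12.04, 10.2, 19.3 and 11.0 CPM in KO. KC872RL, KC893RL and KC934R stood highest, and the groups were separate on the ketogenic diet (2.00% of all genes had this order) but not on the standard diet. The log2 fold change of KO against WT was 0.95 ± 0.29 (SE) on both diets, with adjusted p of 0.205 and 0.411. Its partner Col1a2 had lower log2 fold changes, 0.38 ± 0.29 on both diets, with levels of 6.99 to 16.2 CPM in WT and 10.02 to 21.7 CPM in KO on the standard diet, and 7.36 to 12.2 and 7.25 to 15.97 CPM on the ketogenic diet. Per kilobase the ratio of Col1a1 to Col1a2 averaged 0.59 in WT and 0.80 in KO on the standard diet, with 0.70 and 1.06 on the ketogenic diet, with SDs of 0.12 to 0.22. Counted per kilobase of all annotated exons that ratio was 1.06 to 2.65 over the 16 libraries, so which chain is the higher depends on the length used.

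Col3a1, the fibrillar chain of vessel walls and soft tissue, measured 3.06 to 6.09 CPM in WT and 4.60 to 10.3 CPM in KO on the standard diet. Under ketogenic feeding it measured 1.98, 2.48, 3.36 and 1.41 CPM in WT and 9.23, 4.19, 15.2 and 4.29 CPM in KO. The 4 KO libraries lay above the 4 WT libraries there (2.00% of all genes had this order), at a log2 fold change of 1.86 ± 0.42 with an adjusted p of 0.308, and KC934R and KC913RR were highest. Their reactive astrocyte sums were 1267 and 2397 CPM, against 368 and 376 CPM in KC916RRL and KC935LL. The part of these sums in the Col3a1 level was not tested. Averaged over diets Col3a1 gave 1.37 ± 0.29 (adjusted p = 0.0888). Its neighbour Col5a2, a chain of type V collagen that regulates fibril width, lay at 22.4 to 28.6 CPM in WT and 26.7 to 37.0 CPM in KO on the standard diet. Summed fibroblast and meningeal markers overlapped between genotypes on both diets, at 81.7 to 177 CPM in WT and 122 to 188 CPM in KO on the standard diet, and 58.3 to 150.4 and 84.4 to 111 CPM on the ketogenic diet. Of these markers 9 of 11 lay above 0 in KO on the standard diet (median 0.22) and 6 of 11 on the ketogenic diet (median 0.06), with none called. Their part in the result was not tested.

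Col5a3, a type V chain, was high in the same 5 libraries that stood high for reactive astrocyte markers. It measured 16.9 CPM in KC913RR, 11.8 in KC934R, 10.9 in KC872RL, 7.87 in KC873RR and 7.23 in KC893RL, against 2.83 to 4.85 CPM in the other 11. All 5 are KO libraries, and the other 3 KO libraries were at 3.22 to 4.76 CPM, inside the WT range. Col27a1, a fibrillar chain of cartilage, reached 27.0 CPM in KC913RR, 18.8 in KC872RL and 18.2 in KC873RR, against 8.88 to 14.0 CPM elsewhere. Col11a2 was highest in KC872RL and KC873RR (57.3 and 50.7 CPM) and lowest in KC913RR (17.5). Those 2 are the libraries with microglia sums of 369 and 352 CPM, and the part of these in the Col11a2 level was not tested. Col11a1, at 69.4 to 136 CPM, did not follow that order, being highest in KC934R and lowest in KC873RR. Of the 11 fibrillar genes, edgeR called none in any of the 7 comparisons with all libraries, where it called 0% to 1.16% of all genes. DESeq2 called Col1a1, Col3a1, Col5a3 and Col11a2 in at least 1 of the 7, where it called 0.0401% to 3.88% of all genes.

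Type VI collagen forms beaded filaments from the chains of Col6a1, Col6a2 and 1 of the others. Col6a1 measured 46.2, 40.1, 71.7 and 22.2 CPM in WT and 123, 125, 52.3 and 135 CPM in KO on the standard diet, where the low KO value was that of KC888LL. The ketogenic groups gave 56.1, 55.8, 55.4 and 14.2 CPM in WT, with KC846L lowest of all 16, and 56.9, 64.9, 108 and 66.5 CPM in KO. The genotype difference was 1.27 ± 0.46 (SE) on the standard diet (adjusted p = 0.256) and 0.71 ± 0.46 on the ketogenic diet (adjusted p = 0.659). Col6a2 did not share it, with levels of 8.69 to 19.2 CPM in WT and 12.1 to 15.4 CPM in KO on the standard diet and log2 fold changes of 0.06 ± 0.30 and 0.07 ± 0.30. Per kilobase Col6a1 exceeded Col6a2 by a mean ratio of 3.20 ± 0.56 in WT and 7.499 ± 2.31 in KO on the standard diet, and of 4.07 ± 0.87 and 6.85 ± 3.17 on the ketogenic diet (SD, n = 4 each). Per kilobase of all annotated exons the ratio was larger, at 4.86 to 22.8 over the 16 libraries. That ratio was not tested. Col6a3 was highest in KC913RR (55.4 CPM) and KC894RLL (35.7 CPM), and Col6a5 in KC913RR (12.5 CPM). All 6 type VI genes had positive log2 fold changes in KO on each diet, with medians of 0.39 and 0.50, and none was called by edgeR with all libraries. The 4 libraries highest for Col6a1 are among the 5 with high reactive astrocyte sums (763 to 2863 CPM). The other of the 5, KC913RR, held 56.9 CPM of Col6a1, and KC888LL, the low KO library, had a sum of 429 CPM. Their part in the result was not tested.

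Among the FACIT collagens, Col9a2 showed the change with diet. It encodes a chain of type IX collagen, best known from cartilage. It measured 9.76, 7.52, 5.68 and 7.29 CPM in the KO libraries KC872RL, KC873RR, KC888LL and KC893RL on the standard diet and 3.55, 4.64, 4.81 and 4.93 CPM in KC913RR, KC916RRL, KC934R and KC935LL on the ketogenic diet. The 4 on the ketogenic diet all lay below the 4 on the standard diet (3.72% of all genes had this order), with KC872RL farthest up. The log2 fold change was -0.75 ± 0.18 (SE), with an adjusted p of 0.0492 by edgeR (0.00736 to 0.785 over 20 alternatives, 6 of them under the threshold). In WT it measured 5.21, 3.90, 4.31 and 5.42 CPM on the standard diet and 4.16, 4.10, 2.77 and 3.28 CPM on the ketogenic diet, groups that overlap, at -0.40 ± 0.19 (adjusted p = 0.915). Averaged over genotypes Col9a2 fell by 0.57 on the log2 scale (SE 0.13, adjusted p = 0.0441, with 0.00506 to 0.583 over 27 alternatives, 8 of them under the threshold), and the diet effect did not differ detectably between genotypes (-0.36 ± 0.26, adjusted p = 0.773).

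The call of Col9a2 in KO was kept when KC888LL was left out and was lost when any other of the 7 KO libraries was, with values of -0.60 to -0.87 over the 8 fits. It was also lost with Xist as a covariate (-0.62, adjusted p = 0.312) and without the 4 libraries with Y-linked expression (-0.53, adjusted p = 0.785), of which 2 are in KO on the standard diet and none in KO on the ketogenic diet. In these fits 0.0401% and 0.0169% of all genes were called, against 1.16% with all libraries and no covariate. Markers of other cell types differed with the diet in KO as well. Oligodendrocyte sums were at 4849 to 5315 CPM in KO on the standard diet and at 1870.3 to 3495 CPM on the ketogenic diet, with 6 of 6 markers called lower (median -0.92). In WT they were at 3917 to 6040 CPM on the standard diet and 3236 to 4093 CPM on the ketogenic diet. Blood markers were at 65.8 to 113 CPM in KO on the standard diet and at 17.4 to 32.5 CPM on the ketogenic diet, with 4 of 5 called lower (median -2.02). Fibroblast and meningeal markers were at 122 to 188 and 84.4 to 111 CPM, with 0 of 11 above 0 (median -0.63) and none called. Choroid plexus markers were at 56.4 to 586 and 48.3 to 63.0 CPM, with 1 of 8 above 0 (median -2.10) and none called. Microglia sums were 182 to 369 and 163 to 175 CPM, with 0 of 6 above 0 (median -0.64) and none called, and thalamus markers gave 0 of 4 above 0 (median -0.50) with 1 called. The medians of the other 7 lists ran from -0.34 to 0.36, with none called. Their part in the change of Col9a2 was not tested.

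Col9a2 (ENSMUSG00000028626) lies on chr4:121039385-121055322, plus strand, of GRCm38. Its RefSeq window of 250 bases before and 50 after the start site, GRCm38.p6 chr4:121039316-121039615 on the plus strand, is printed because edgeR called this collagen gene with the diet. The annotations differ here: the RefSeq start site is 181 bases downstream of the GENCODE gene start, so 231 of the 300 bases lie inside the GENCODE gene. Capitals mark GGGCGG on either strand, found at 3 places, and CCAAT and TATAAA were not found in it.
Col9a2: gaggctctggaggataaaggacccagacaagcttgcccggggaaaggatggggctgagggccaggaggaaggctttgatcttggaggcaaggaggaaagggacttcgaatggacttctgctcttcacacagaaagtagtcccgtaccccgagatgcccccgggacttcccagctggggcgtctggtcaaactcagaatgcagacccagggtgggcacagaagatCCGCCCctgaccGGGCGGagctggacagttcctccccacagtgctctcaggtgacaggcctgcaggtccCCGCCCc

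The other type IX chains differed from Col9a2 by library. Col9a3 measured 45.3, 23.6, 15.3 and 23.8 CPM in KO on the standard diet and 7.96, 7.93, 14.5 and 12.98 CPM in KO on the ketogenic diet, groups that do not overlap (3.72% of all genes had this order). The log2 fold change was -1.31 ± 0.39 (SE), with an adjusted p of 0.124. In WT, KC894RLL and KC844RR were highest on their diets, at 29.6 and 22.8 CPM against 9.99 to 15.4 CPM in the other 6, and these are the 2 libraries with choroid plexus sums of 1111 and 1069 CPM. In KO those sums were 387, 213, 56.4 and 586 CPM on the standard diet, KC888LL being lowest in them and in Col9a3, and 48.3 to 63.0 CPM on the ketogenic diet. The part of choroid plexus markers in the Col9a3 result was not tested. Col9a1 was near the limit of detection, at 0.201 to 1.63 CPM, and its largest difference was that with diet in WT (-1.30 ± 0.45, adjusted p = 0.781).

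Col12a1, a FACIT of dense connective tissue that bridges fibrils, was the collagen gene that edgeR called with genotype. It measured 13.3, 11.2, 11.3 and 9.54 CPM in WT and 17.1, 15.03, 13.6 and 15.3 CPM in KO on the standard diet. With the ketogenic diet it measured 11.6, 11.2, 11.8 and 6.69 CPM in WT and 18.0, 15.03, 18.8 and 14.8 CPM in KO. Within each diet all 4 KO libraries exceeded all 4 WT libraries, an order that 2.97% of all genes had on the standard and 2.00% on the ketogenic diet. KC888LL was the lowest KO library at 13.6 and KC890RL the highest WT library at 13.3. KC934R, KC913RR, KC872RL and KC893RL, highest for Col12a1, are among the libraries with high reactive astrocyte sums. KC873RR, the remaining one of those, was level with KC916RRL, whose sum was 368 CPM. The part of these markers in the result was not tested. The average over diets was 0.56 ± 0.11 (SE) with an adjusted p of 0.0487 by edgeR (0.000484 to 0.157 over 27 alternatives, 11 of them under the threshold). Within the diets it was 0.43 ± 0.15 (adjusted p = 0.232) and 0.70 ± 0.15 (adjusted p = 0.188). Of 16 fits without 1 library, 4 kept the call, those without KC888LL, KC846L, KC916RRL or KC935LL, and over the 16 the value ran from 0.48 to 0.61. Col12a1 (ENSMUSG00000032332) lies on chr9:79598991-79718831, minus strand, of GRCm38.

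Col22a1, a FACIT of tissue junctions, had the smallest p of the 42 on the standard diet. It measured 4.40, 4.04, 4.38 and 5.75 CPM in WT and 8.60, 9.38, 7.41 and 9.90 CPM in KO, without overlap (2.97% of all genes), at 0.92 ± 0.18 (SE) and an adjusted p of 0.134. Under ketogenic feeding it measured 7.62, 5.78, 4.30 and 7.74 CPM in WT and 6.96, 7.03, 9.67 and 6.81 CPM in KO, at 0.26 ± 0.18. The WT values were spread on that diet and overlap those of KO.

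Col16a1, a FACIT of fibroblasts and smooth muscle, was at 78.0 CPM in KC913RR, 35.0 in KC872RL and 30.1 in KC873RR and at 18.1 to 24.9 CPM in the other 13 libraries. Col19a1, made by a set of hippocampal interneurons and needed for their synapses, measured 36.0 to 45.6 CPM in WT and 32.5 to 40.1 CPM in KO on the standard diet, and 29.0 to 50.9 CPM in WT and 31.2 to 50.9 CPM in KO on the ketogenic diet. It overlapped between all groups, with log2 fold changes of -0.12 to 0.11 in the 4 comparisons of 2 groups and SEs of 0.17. Summed interneuron markers lay at 592 to 638 CPM in WT and 649 to 787 CPM in KO on the standard diet. Col14a1, a FACIT of skin and tendon, and Col20a1 were not called by edgeR with all libraries.

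**Figure D4:**
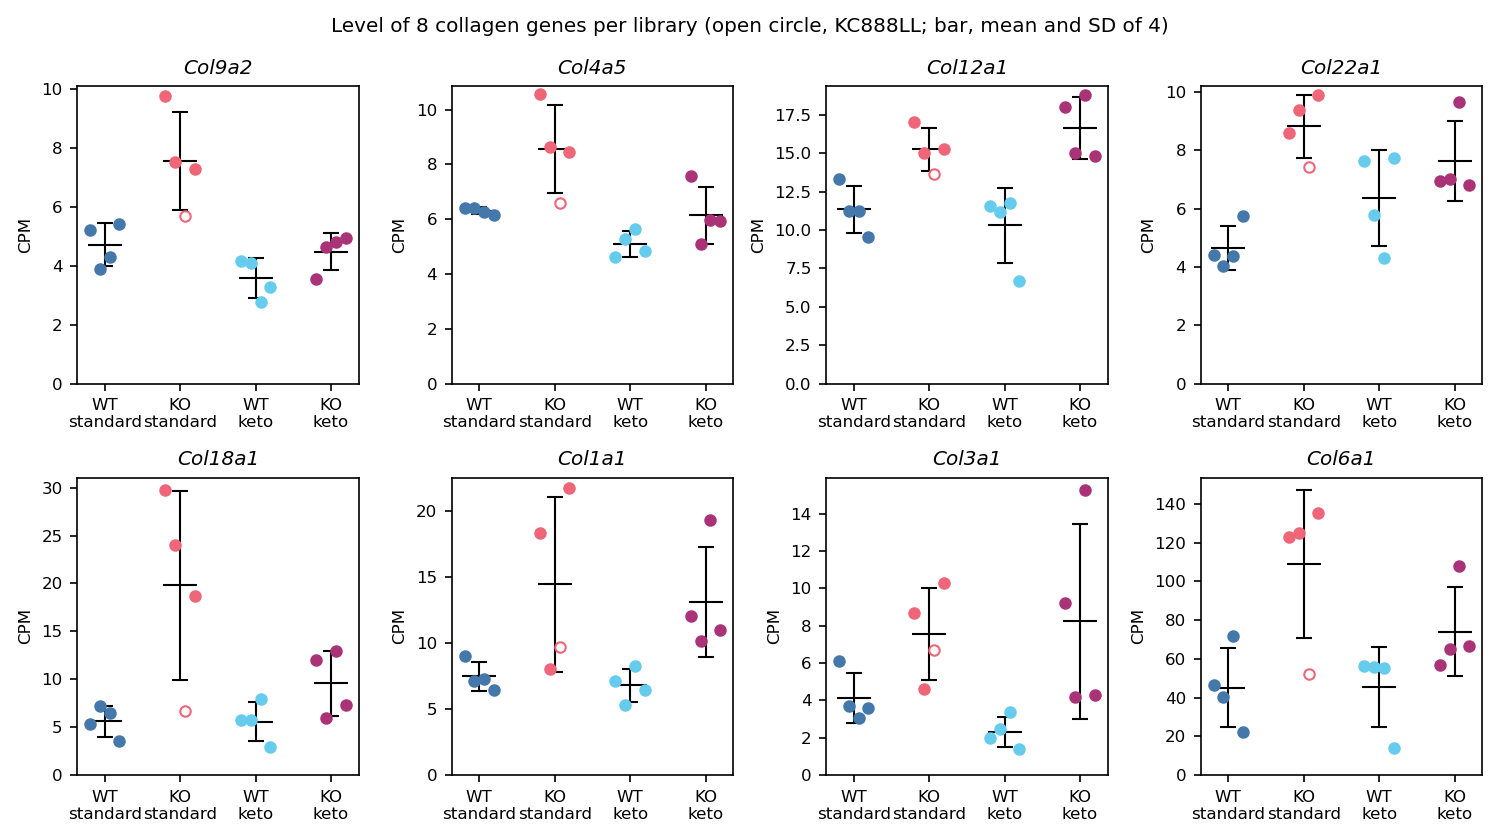
CPM of 8 collagen genes in each library by group (points), with the mean and SD of 4 libraries (bars). The open circle is KC888LL, which lies inside the WT range for Col18a1 (6.65 CPM) and Col6a1 (52.3 CPM). On each diet all KO points exceed all WT points for Col12a1, an order that 2.97% (standard) and 2.00% (ketogenic) of all genes had.

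Among the multiplexins, proteoglycan collagens of basement membranes, Col18a1 had the largest genotype difference on the standard diet of the 42 genes. It encodes the precursor of endostatin. It measured 5.28, 7.20, 6.47 and 3.53 CPM in WT and 29.7, 24.1, 6.65 and 18.7 CPM in KO on the standard diet, where KC888LL held the value inside the WT range. The ketogenic groups gave 5.74, 5.72, 7.90 and 2.91 CPM in WT and 12.04, 5.98, 12.9 and 7.28 CPM in KO. The difference on the standard diet was 1.82 ± 0.43 (SE) with an adjusted p of 0.192 (0.00373 to 0.999 over 20 alternatives, 3 of them under the threshold), and 2.10 ± 0.33 without KC888LL. Without the 4 libraries with Y-linked expression it was 1.14 (adjusted p = 0.999), and the 2 KO libraries left out there, KC872RL and KC873RR, are the highest for Col18a1 and those with high microglia sums. The 5 libraries above 10 CPM were the 5 with high reactive astrocyte markers, and the other 11 lay at 2.91 to 7.90 CPM. That list was at 2863, 1611, 429 and 763 CPM in the 4 KO libraries on the standard diet and all 5 of its tested markers had positive log2 fold changes there, with a median of 1.63 and none called. Their part in the result was not tested. Col15a1, the other multiplexin, lay at 2.54 to 8.89 CPM and did not share this order, being lowest in KC913RR.

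The short-chain collagens Col8a1 and Col8a2, network formers of vessel and corneal membranes, followed 2 libraries. Col8a2 measured 5.25 CPM in KC894RLL and 5.01 CPM in KC844RR, against 0.224 to 2.79 CPM in the other 14 libraries, and Col8a1 5.39 and 3.65 CPM against 0.228 to 1.76 CPM. Both libraries are WT, and they are those with the high choroid plexus sum, in which Ttr was at 971 and 957 CPM. In KO the 4 libraries on the ketogenic diet, with choroid plexus sums of 48.3 to 63.0 CPM, held 0.224 to 0.468 CPM of Col8a2, and the 4 on the standard diet, with sums of 56.4 to 586 CPM, held 1.24 to 2.79 CPM. The log2 fold change was -2.42 ± 0.99 (SE) with an adjusted p of 0.234. Without KC894RLL and KC844RR Col8a2 was called lower in this comparison, where 0.549% of all genes were called. Those 2 WT libraries are not part of the comparison and enter it through the fit shared by all groups. They are the highest for Col8a2 and were left out after the data were seen, so that call adds no support. The part of choroid plexus RNA in the result was not tested.

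**Figure D5:**
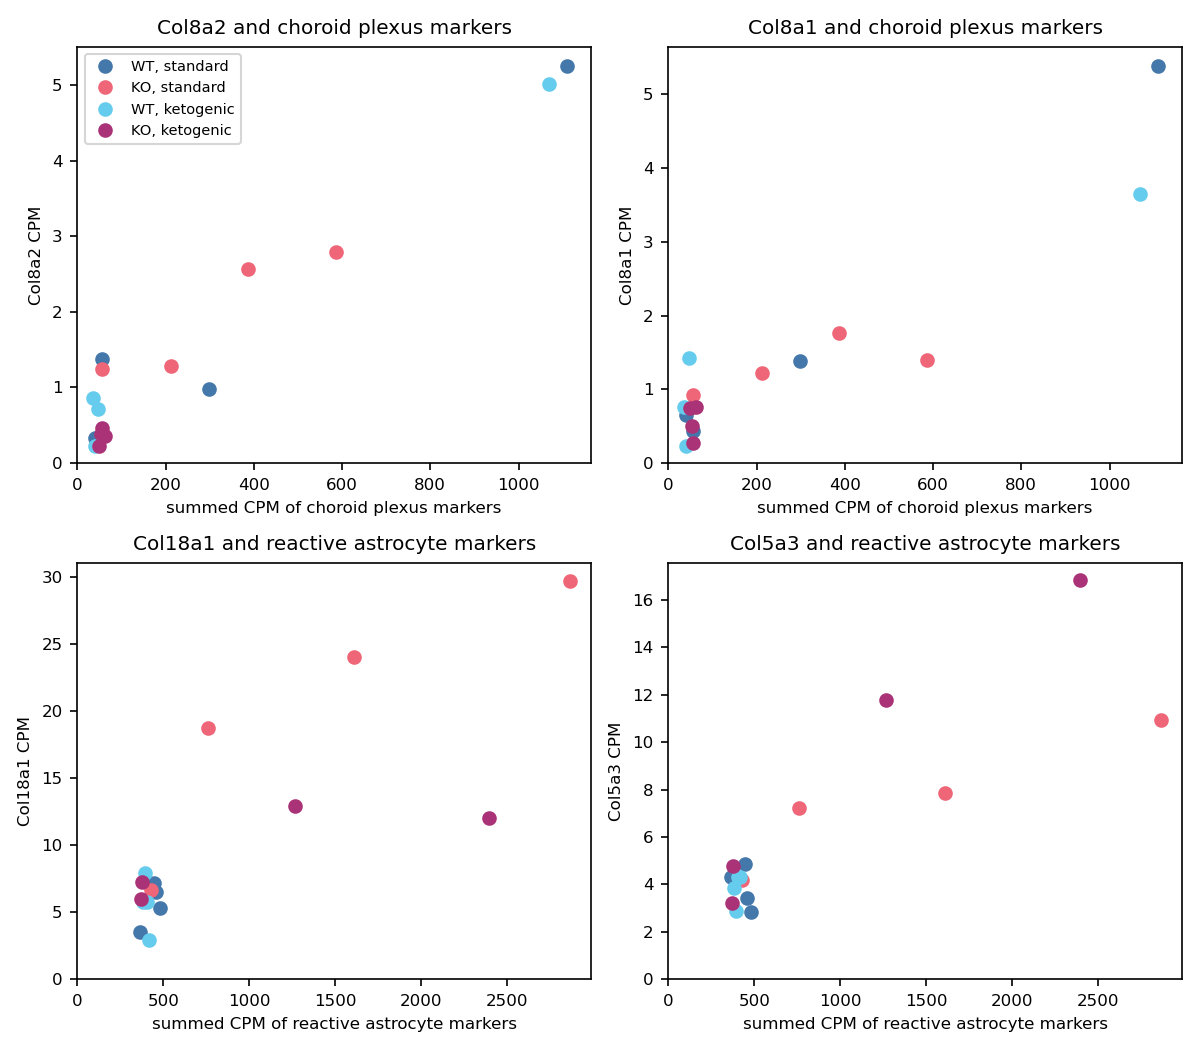
Each of the 16 libraries as a point, with the summed CPM of choroid plexus markers against Col8a2 and Col8a1 (top) and of reactive astrocyte markers against Col18a1 and Col5a3 (bottom), in CPM and coloured by group. KC894RLL and KC844RR stand at the top right of the upper panels, and the 5 libraries at 763 CPM or more of astrocyte markers are highest in the lower panels.

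Of the membrane collagens, Col25a1 measured 103 to 126 CPM in WT and 99.3 to 132 CPM in KO on the standard diet, and 102 to 131 CPM in WT and 113 to 143 CPM in KO on the ketogenic diet. Its log2 fold changes in the 4 comparisons of 2 groups were -0.01 to 0.15, each with an SE of 0.10, the smallest SE of the 42 genes. Col13a1, found at synapses of muscle, measured 0.535 to 2.04 CPM in KO on the ketogenic diet and 1.61 to 3.15 CPM on the standard diet (-1.03 ± 0.33, adjusted p = 0.127), and -0.74 ± 0.24 averaged over genotypes (adjusted p = 0.155). Col23a1 lay at 11.4 to 25.9 CPM in 15 libraries and at 3.05 CPM in KC846L. The anchoring fibril gene Col7a1 (4.65 to 8.13 CPM) and Col26a1 and Col28a1 (0.327 to 3.49 CPM) were not called by edgeR with all libraries.

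One WT library on the ketogenic diet, KC846L, set many low values. It was the lowest of the 16 for 14 of 42 collagen genes, where it was the lowest for 11.1% of all tested genes. It was the highest for none, where it was the highest for 9.61% of all tested genes. Among the 14 were Col6a1, Col6a2, Col23a1, Col12a1, Col3a1 and Col18a1. It also had the lowest sum of the 11 fibroblast and meningeal markers (58.3 CPM against 81.7 to 188 CPM elsewhere), though it was the lowest library for 2 of them, Dcn and Igfbp2, and the highest sum of dentate granule cell markers (447 CPM). The part of these in its low collagen levels was not tested.

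Genes that modify, secrete, cleave, cross-link, bind or degrade collagen were read from a list of 62, of which 58 were tested. With all libraries edgeR called 1 in the 7 comparisons: Ddr1, a collagen receptor kinase, fell by 0.33 with the diet averaged over genotypes (SE 0.08, adjusted p = 0.0475 by edgeR). That is 1 of 58, in a comparison where 0.899% of all genes were called. Without KC888LL, 3 were called higher and 4 lower in KO on the standard diet, where 2.88% and 2.85% of all genes were. The higher ones were Sparc, a collagen-binding matrix protein (0.86, adjusted p = 0.000883), the lysyl hydroxylase Plod2 (0.54, 0.0243) and the laminin chain Lama2 (0.48, 0.0331). The lower ones were the membrane collagenase Mmp14 (-0.51, 0.0105), the prolyl hydroxylase subunit P4ha1 (-0.31, 0.0111), the galactosyltransferase Colgalt2 (-0.57, 0.0183) and the collagen III receptor Adgrg1 (-0.56, 0.0191). With the diet in KO, 3 were called higher and 4 lower without KC888LL, where 2.58% and 3.60% of all genes were. Those higher were Mmp14 (0.53), Adgrg1 (0.55) and Agrn (0.21), and those lower were Ddr1 (-0.50), Plod1 (-0.41), Plod2 (-0.47) and Sparc (-0.46). Both comparisons share the KO libraries on the standard diet. Also without KC888LL, 4 were called higher and 3 lower with genotype averaged over diets, against 2.28% and 2.68% of all genes. With the diet averaged over genotypes 1 was called higher and 2 lower, against 0.897% and 1.68%. The 5 libraries highest for Sparc, at 302 to 459 CPM against 203 to 271 CPM in the other 11, are those with high reactive astrocyte sums. In the diet average, where Ddr1 was called, 6 of 6 oligodendrocyte markers (median -0.70) and 3 of 5 blood markers (median -1.03) were called lower. The part of these markers was not tested. The collagen chaperone gene Serpinh1 ranged from 8.68 to 21.01 CPM, with its highest value in KC913RR.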

How the data were processed

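Gene counts were measured by RNA sequencing of hippocampus from 16 mice. The authors deposited raw counts per gene, per the file headers 1 column per animal. Per the submitters' processing notes the build was mm10 and DESeq2 was used. The aligner, counting program, annotation and strand setting are not given in the sources used here, so reads of overlapping or antisense genes could not be told apart (exons of other annotated genes cover 14 to 563 bases of 12 collagen genes, most in Col4a3). Columns carry animal tags but no replicate number and were assigned to groups by genotype and diet.

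The members and gene lists were chosen with earlier results of these data known. Genes passing filterByExpr (17469) were fitted over all 4 groups with edgeR 4.0.16 in R 4.3.3 (TMM scaling, robust quasi-likelihood test, Benjamini-Hochberg adjustment over all tested genes, threshold 0.05). CPM uses the TMM-scaled library size. DESeq2 1.42.0, limma 3.58.1 (voom), other scalings and filters, an Xist covariate and leaving out each library were alternatives. In each comparison the called collagen genes were named (at most 10), or the 3 of smallest p where fewer were called, and levels were given for 9 genes fixed by name. Other genes are named as the examples of their class, chosen after their values were seen. Of 49315 identifiers 48970 were in GENCODE M21, used for positions and transcript lengths. Promoter windows are from RefSeq (GRCm38.p6). Each edgeR p-value sets a difference between groups against the spread between animals, estimated over all groups of the fit and moderated across genes. Libraries of the same group differed beyond counting noise (chi-square per gene of at least 3.85), so none was taken as deposited in duplicate. The fit was tested on simulated data.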

Additional observations from a re-analysis of the deposited data

Results flagged for a closer look

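Of 172 sets of 4 libraries (42 collagen genes and the summed level, in 4 groups), 8 held 1 library apart from the other 3 by more than the Dixon limit, which is 4.65% of the sets. Chance alone sets apart about 1 in 20, or 8.6 of 172, so the number of such sets is no more than chance gives. KC913RR, KO on the ketogenic diet, accounted for 2 of these: Col16a1 at 78.0 CPM, where the next library was at 24.9 CPM, and Col27a1 at 27.0 CPM, where the next was at 12.5 CPM. KC846L, WT on the ketogenic diet, accounted for 2: Col6a1 at 14.2 CPM, where the next was at 55.4 CPM, and Col12a1 at 6.69 CPM, where the next was at 11.2 CPM. Col6a1 was at 52.3 CPM in KC888LL, KO on the standard diet, against 123 CPM in the next library. Col22a1 was at 9.67 CPM in KC934R, KO on the ketogenic diet, against 7.03 CPM. Col8a2 was at 5.01 CPM in KC844RR, WT on the ketogenic diet, against 0.864 CPM. Col24a1 was at 2.55 CPM in KC900RLL, WT on the standard diet, against 0.943 CPM.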

How the results depend on the processing

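Counts of called collagen genes stood at the threshold and moved with the processing, while no fold change followed over the alternatives reversed. Those followed were the 3 collagen genes of smallest p in each comparison. With all libraries they were 0 (KO against WT, standard diet), 0 (ketogenic diet), 1 (diet in KO), 0 (diet in WT), 0 (interaction), 1 (diet averaged) and 1 (genotype averaged). DESeq2 gave 4 and 2 for genotype on the standard and ketogenic diets, 3 and 2 for diet in KO and averaged, and 9 for genotype averaged. In the same order DESeq2 called 0.967% and 0.258%, 3.88% and 2.47%, and 2.38% of all genes. Without a filter on low counts the genotype counts were 1 (Col22a1, standard diet), 1 (Col12a1, ketogenic diet) and 2 (averaged), against 0.0543%, 0.0332% and 0.214% of all genes. With at least 10 counts in every library genotype averaged gave 0 (0.0606% of all genes), and without robust estimation 3 (0.258%). Diet in KO gave 0 with DESeq2 size factors (1.13% of all genes), limma-voom (0.836%), only the groups compared (0.0535%) and Xist as a covariate (0.0401%). Diet averaged gave 0 with limma-voom (0.841%) and with Xist (0.424%), as did genotype averaged with Xist (0.0801%). The next 3 alternatives were chosen after seeing the data. Without KC894RLL and KC844RR diet averaged gave 0 (0.181% of all genes) and genotype averaged 0 (0.0170%). Diet in KO then called Col8a2 (0.549% of all genes) in place of Col9a2 (adjusted p = 0.0626). Without the 4 libraries with Y-linked expression diet in KO gave 0 (0.0169% of all genes), as did both averages (0.00563% each). Without KC888LL and with Xist the counts were 2 (genotype, standard diet), 0 (diet in KO), 0 (diet averaged) and 8 (genotype averaged), against 1.62%, 0.299%, 1.17% and 4.22% of all genes. Leaving out 1 library gave 0 to 6 for genotype on the standard diet, 0 to 0 on the ketogenic diet, 0 to 4 for diet in KO, 0 to 0 in WT, 0 to 0 for the interaction, 0 to 2 for diet averaged and 0 to 10 for genotype averaged, and each highest value above 0 was that without KC888LL. For diet in KO, leaving out KC934R called Col13a1 alone (1.08% of all genes). Leaving out any of KC872RL, KC873RR, KC893RL, KC913RR, KC916RRL or KC935LL gave 0 (0.158% to 1.23% of all genes). For genotype averaged, leaving out KC916RRL gave 6 (0.722% of all genes), KC935LL 2 (0.339%) and KC846L 1 (0.0564%), and 12 other fits gave 0 (0.0338% to 0.124%). For diet averaged, 1 was called without KC913RR (Col4a5, 0.862% of all genes) and without KC935LL (Col9a2, 1.05%). The causes were not tested. The group means of the summed level ran from 744.3 to 788 CPM (WT) and 893 to 961 CPM (KO) on the standard diet, and 734 to 778 CPM (WT) and 858 to 946 CPM (KO) on the ketogenic diet. Other scalings moved the median of all genes by at most 0.02 on the log2 scale. No paired analysis was possible because the columns carry animal tags and not the replicate numbers of the labels. With 4 animals a group, genes such as Col8a2, Col9a1, Col24a1 and Col28a1, with as few as 3 to 5 counts in some libraries, are measured with wide errors.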
